A study of Mus musculus with 8 samples.

Results

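Signals through G proteins end when the alpha subunit hydrolyses its GTP, and RGS proteins speed up that step. Members of the R7 family of RGS proteins (RGS6, RGS7, RGS9 and RGS11) are stable only when bound to the atypical G protein beta subunit encoded by *Gnb5*, and the complex is held at membranes by a small anchor protein. The anchor encoded by *Rgs9bp* is best known from photoreceptors, where it tethers RGS9 to the disc membrane and helps the light response to end in time, whereas the anchor encoded by *Rgs7bp* is the usual partner in brain neurons.

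The expression of 10 genes was examined in the mouse cortex at postnatal day 1 (P1), out of 48709 genes listed in the deposited count tables. They are the anchors *Rgs9bp* and *Rgs7bp*, the orphan receptor *Gpr158*, which recruits RGS7 to the membrane, the R7 genes *Rgs6*, *Rgs7*, *Rgs9* and *Rgs11*, the subunit *Gnb5*, and *Rgs4* and *Rgs8*, neuronal RGS genes of the smaller R4 class that need no anchor or *Gnb5*. The set was put together by gene symbol around *Rgs9bp*, which was known to be strongly raised in these same samples. The values of *Rgs9bp* are therefore given as a description without a test, while the other 9 members were tested along with all genes. All 10 members passed the filter on low counts, which left 16287 genes.

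RNA-seq libraries were made from whole cortex of 4 control and 4 dcKO_Nex-Cre samples. According to the study's methods, dcKO_Nex-Cre mice carry floxed alleles of the genes of BAF155 and BAF170, scaffold subunits of the BAF chromatin remodeling complex, together with Nex-Cre, which is active in postmitotic projection neurons of the cortex. The controls are heterozygous for both floxed alleles and lack Cre, so the Cre allele is present in 1 group only. All mice are described as being on a C57BL6/J background. The deposited labels call the mutants a double knockout without naming the Cre line, which was taken from the paper. Interneurons, glia and other cells outside the Nex lineage keep both genes and contribute RNA to every library. The labels do not say whether the samples of a group are separate animals, so p values here measure the spread between these samples, which may be partly technical.

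Total counts ranged from 17958641 to 35191912 per library, and 23596 to 24221 genes were detected. *Smarcc2*, the gene of BAF170, fell from 462 ± 25.8 to 263 ± 26.0 CPM (counts scaled to a common library size; mean ± SD, n = 4 per group; edgeR adjusted p = 0.00267), and *Smarcc1*, the gene of BAF155, fell from 148 ± 11.6 to 102 ± 13.7 CPM (adjusted p = 0.0348, which lost significance in 8 of 16 alternative fits). The file names gave lane tag 2 for the 4 controls and mutant replicates 1 and 2, and lane tag 8 for mutant replicates 3 and 4, so the group difference can be looked at within a lane only for the former. Mitochondrial genes took 2.33% to 6.87% of the counts, with the highest shares in control replicate 2 (6.87%) and dcKO_Nex-Cre replicate 4 (6.15%). Of the 12 markers of cortical projection neurons, *Emx1* and *Neurod6* were called lower and none was called higher, and the list's summed level was 1847 to 2147 CPM in the controls and 1639 to 1866 CPM in the mutants. Nex is another name of *Neurod6*, the gene in which the Nex-Cre allele is inserted, so for this gene the allele and the deletion cannot be told apart. In whole tissue, fewer cells of a type and less RNA per cell cannot be told apart either.

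*Rgs9bp* (ENSMUSG00000056043) is a single-exon gene of 6590 bases on the minus strand of chromosome 7 (chr7:35578993-35585582, GRCm38). Only 711 bases of it, or 10.8% of the transcript, are coding. *Rgs7bp* (ENSMUSG00000021719) occupies chr13:104945904-105054930 on the minus strand, has up to 6 exons in a transcript and a coding length of 771 bases. The first 150 coding bases of the anchors are shown because reads can be assigned to one gene or the other only as far as their sequences differ. Capitals mark the start codon. The *Rgs9bp* bases lie at chr7:35585071-35585220 and the *Rgs7bp* bases at chr13:105054065-105054214, both read on the minus strand.
Rgs9bp: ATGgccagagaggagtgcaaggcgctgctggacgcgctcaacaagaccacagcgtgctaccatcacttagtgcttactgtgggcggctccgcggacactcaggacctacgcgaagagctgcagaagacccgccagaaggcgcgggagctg
Rgs7bp: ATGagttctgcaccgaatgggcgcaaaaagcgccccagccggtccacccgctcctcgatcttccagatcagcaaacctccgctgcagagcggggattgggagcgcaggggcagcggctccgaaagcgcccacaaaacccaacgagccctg
A global alignment of the whole coding sequences had 381 identical bases in 804 columns, or 47.4%, and the longest run that they shared was 10 bases. None of the 6541 stretches of 50 bases in *Rgs9bp* exons occurred in the exons of another annotated gene. Among the other members the share of such stretches found in another gene was between 0 for *Rgs7* and 6.8% for *Gpr158*, whose antisense neighbour *Gm13327* was listed at 0 counts in all libraries. For *Gnb5* the share was 6.21%, with *Gm19531*.

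*Rgs9bp* RNA stood well above the control level in every mutant library. In control replicates 1 to 4 it measured 4.08, 3.45, 3.84 and 4.71 CPM, from 63 to 107 counts per library. In dcKO_Nex-Cre replicates 1 to 4 it measured 19.5, 13.0, 17.2 and 23.6 CPM, from 340 to 673 counts. The groups did not overlap, the lowest mutant library was replicate 2 and the highest was replicate 4. The mean rose from 4.02 ± 0.53 to 18.3 ± 4.41 CPM (SD, n = 4 per group), which is 4.56-fold. On the log2 scale the difference was 2.18 with a standard error of 0.18. Within lane tag 2 alone, with dcKO_Nex-Cre replicates 1 and 2, it was 2.02 with a standard error of 0.19. By this difference *Rgs9bp* ranked at place 4 among all genes tested. The set was chosen by these values, the *Rgs9bp* counts of the same 8 libraries, so they carry no test. For comparison, edgeR's test called 0.375% of all genes higher in the mutants at an adjusted p under 0.05, and 3.99% of all genes had every mutant library above every control.

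**Figure D1:**
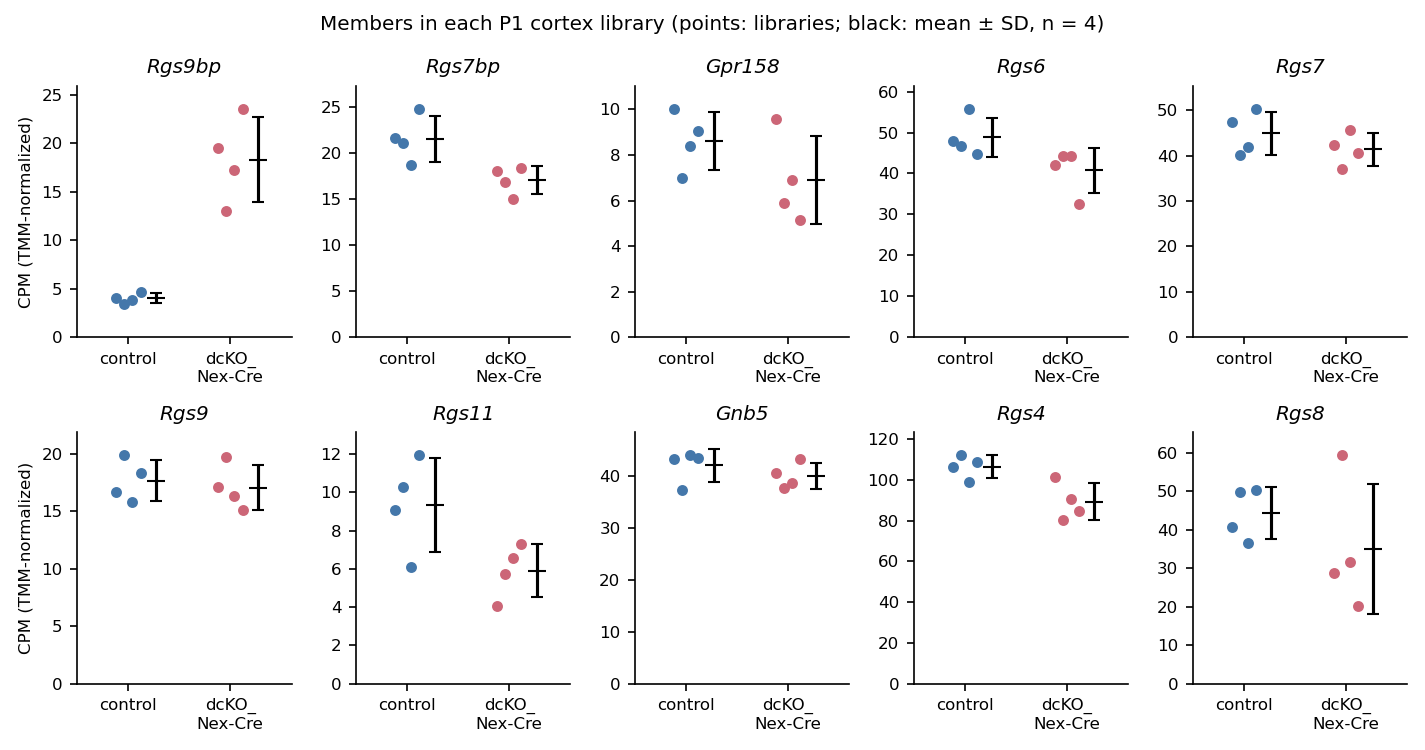
Levels of the 10 members in each library in CPM, normalized by the TMM method, with all vertical axes starting at 0. Points are libraries, with replicates 1 to 4 from left to right, and black bars show the mean ± SD of the 4 libraries of a group. *Rgs9bp* is the member with every mutant library far above every control, *Rgs7bp* and *Rgs6* have every mutant library below every control, and the groups overlap for the other 7.

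None of the tested genes around *Rgs9bp* on chromosome 7 was called. *Ankrd27*, the gene of a regulator of endosome traffic, starts 662 bases from the start of *Rgs9bp* and is transcribed in the opposite direction. It measured 48.5, 54.1, 48.3 and 48.3 CPM in the controls and 52.9, 50.7, 55.6 and 57.3 CPM in the mutants. The groups overlapped, since control replicate 2 exceeded mutant replicates 1 and 2, and the log2 difference was 0.12 with a standard error of 0.07 (edgeR adjusted p = 0.494) and 0.06 within lane tag 2. *Nudt19*, which encodes a peroxisomal hydrolase of coenzyme A, differed by -0.27 (standard error 0.14, adjusted p = 0.41). It was called lower at -0.41 without dcKO_Nex-Cre replicate 4 (adjusted p = 0.0328) and at -0.31 without the 2 libraries of highest mitochondrial share (adjusted p = 0.0102). The difference was -0.16 without control replicate 2 (adjusted p = 0.686) and -0.44 within lane tag 2 (adjusted p = 0.0801). The other tested genes that reach within 100 kb of *Rgs9bp*, namely *Tdrd12*, *B230322F03Rik*, *Pdcd5* and *Dpy19l3*, had log2 differences between -0.31 and 0.12.

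**Figure D2:**
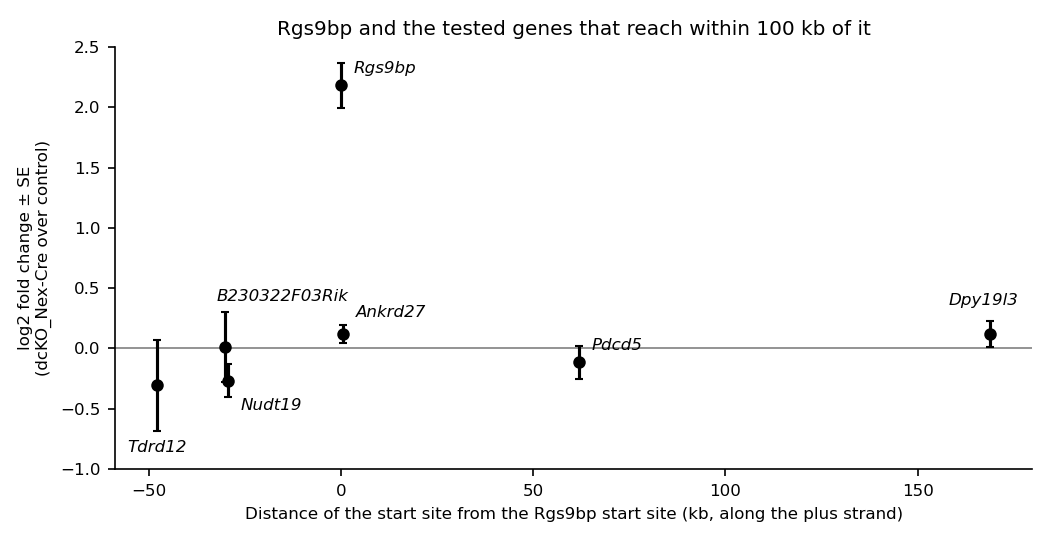
Log2 fold change of the mutant over the control cortex, with its standard error, for *Rgs9bp* and the tested genes that reach within 100 kb of it, against the distance of each start site from that of *Rgs9bp* in kb along the plus strand. *Rgs9bp* stands at 2.18, while the 6 neighbours lie between -0.31 and 0.12.

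Part of the stretch between *Rgs9bp* and *Ankrd27* is shown because a gene that differed strongly and a gene that was not called lie on either side. It was cut from the RefSeq promoter window of *Ankrd27*. *Rgs9bp* had no such window, and the bases next to its start are not shown. The annotation places no transcript in these 229 bases, which lie at chr7:35585997-35586225 of GRCm38.p6, 415 to 643 bases upstream of the *Rgs9bp* start, and are printed on the plus strand so that *Ankrd27* follows to the right. Capitals mark the letters of a GC box (GGGCGG) and of a CCAAT box, the latter on the minus strand.
Rgs9bp to Ankrd27: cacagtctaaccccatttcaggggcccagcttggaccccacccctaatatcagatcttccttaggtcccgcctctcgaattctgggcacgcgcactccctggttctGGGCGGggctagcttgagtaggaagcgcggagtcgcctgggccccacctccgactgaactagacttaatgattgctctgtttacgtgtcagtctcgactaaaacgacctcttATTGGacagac
The window holds 12 CG dinucleotides and 55.9% G or C, against medians of 5 and 52.0% over 32851 RefSeq promoter windows of the same length. Both strands were searched for each motif. A GC box occurred in 29.7% of all windows and a CCAAT box in 32%. The E-box letters CANNTG, found in 63.4% of all windows, the AP-1 letters TGANTCA, found in 6.33%, and the TATA letters TATAAA, found in 11.7%, were not in this window. Of the 8 members with a promoter window, which leave out *Rgs9bp* and *Rgs11*, 2 held a GC box, 3 a CCAAT box and 7 an E-box. The matches are a description of the letters.

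The other 9 members all had negative log2 differences, but none passed the test. Their differences ran from -0.67 to -0.05 with a median of -0.26, where the median of all genes tested was 0.0043 and 49.1% of all genes were negative. At an adjusted p under 0.05, edgeR's test, DESeq2 and limma-voom each called 0 of the 9, where edgeR called 0.51% of all genes lower. At an unadjusted p under 0.05, 4 of the 9 were lower and 0 higher, beside 7.05% of all genes lower and 6.59% higher. Every mutant library lay below every control for 2 of the 9, as it did for 4.01% of all genes.

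*Rgs7bp*, the brain anchor, was lower in each mutant library than in any control. It measured 21.7, 21.2, 18.7 and 24.8 CPM in control replicates 1 to 4 and 18.1, 16.9, 15.0 and 18.4 CPM in dcKO_Nex-Cre replicates 1 to 4. The lowest control and the highest mutant were close to each other. The means were 21.6 ± 2.51 and 17.1 ± 1.55 CPM (SD, n = 4), and the log2 difference was -0.34 with a standard error of 0.11 and a 95% interval from -0.58 to -0.10 (edgeR adjusted p = 0.206). Without control replicate 2 and dcKO_Nex-Cre replicate 4, the libraries of highest mitochondrial share, it was called lower at -0.38 (adjusted p = 0.0463), while across all alternative fits the adjusted p ran from 0.0463 to 0.471. That fit was chosen after seeing the data.

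The levels of the anchors were also set side by side, per kilobase of exon, since levels of different genes can be compared only per length. *Rgs9bp* measured 0.62, 0.52, 0.58 and 0.72 CPM per kb in the controls, and *Rgs7bp* 3.06, 2.99, 2.65 and 3.51. In the mutants *Rgs9bp* measured 2.96, 1.98, 2.61 and 3.58 CPM per kb, and *Rgs7bp* 2.56, 2.38, 2.12 and 2.60. *Rgs9bp* was below *Rgs7bp* in all controls and above it in all mutants but replicate 2. Its share of their summed level was 16.7% ± 1.31 in the controls and 53.0% ± 5.41 in the mutants. The sum itself was 3.66 ± 0.42 and 5.20 ± 0.81 CPM per kb, from 3.23 to 4.23 in the controls and from 4.36 to 6.18 in the mutants. These shares and sums contain the value that chose the set.

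*Gpr158*, the receptor that binds RGS7, measured 10.03, 7.01, 8.39 and 9.07 CPM in the controls and 9.59, 5.90, 6.89 and 5.16 CPM in the mutants. Mutant replicate 1 lay among the controls and the other mutants lay below them. The log2 difference was -0.31 with a standard error of 0.19 and an interval from -0.74 to 0.11 (edgeR adjusted p = 0.486). It was -0.52 without dcKO_Nex-Cre replicate 1, -0.20 without dcKO_Nex-Cre replicate 4 and -0.15 within lane tag 2, and it was called in none of these fits.

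Among the R7 genes, *Rgs6* and *Rgs11* had the larger differences and *Rgs9* the smallest. *Rgs6* (ENSMUSG00000021219), whose protein is known for dampening muscarinic signals in the heart and is also found in brain, measured 47.9, 46.8, 55.8 and 44.7 CPM in the controls. In the mutants it measured 42.0, 44.3, 44.2 and 32.6 CPM. The groups did not overlap, although control replicate 4 and mutant replicates 2 and 3 were nearly level and mutant replicate 4 was far below the rest. The log2 difference was -0.26 with a standard error of 0.11 (interval -0.50 to -0.01, edgeR adjusted p = 0.338), and without dcKO_Nex-Cre replicate 4 it was -0.16 (adjusted p = 0.238).

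*Rgs11* (ENSMUSG00000024186), known from retinal bipolar cells, measured 9.07, 10.3, 6.09 and 11.9 CPM in the controls and 4.06, 5.71, 6.56 and 7.30 CPM in the mutants. Control replicate 3 fell among the mutants, so the groups overlapped. The log2 difference of -0.67 was the most negative of the members, with a standard error of 0.23 and an interval from -1.17 to -0.18 (edgeR adjusted p = 0.223). Within lane tag 2 it was -0.94 (adjusted p = 0.0905). *Rgs11* shares 4836 bases of chromosome 17 with *Arhgdig*, a gene on the other strand, and 1.33% of its 50-base stretches are also in *Arhgdig* exons. *Arhgdig* measured 73.5 ± 4.24 CPM in the controls and 52.5 ± 10.9 CPM in the mutants, a log2 difference of -0.49 (adjusted p = 0.121). It was called lower in 5 of 16 alternative fits. Whether reads were counted by strand is not given in the sources used here, and its part in the *Rgs11* value was not tested.

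*Rgs7* (ENSMUSG00000026527), a widely expressed brain member, measured 45.0 ± 4.75 and 41.4 ± 3.62 CPM, with controls from 40.2 to 50.3 CPM and mutants from 36.9 to 45.6 CPM. Its log2 difference was -0.12 with a standard error of 0.10 and an interval from -0.33 to 0.09 (edgeR adjusted p = 0.595). It was -0.06 without control replicate 4 and -0.07 without dcKO_Nex-Cre replicate 2. *Rgs9* (ENSMUSG00000020599), the partner of the *Rgs9bp* protein in photoreceptors and, as a longer splice form, abundant in striatum, measured 16.7, 19.9, 15.8 and 18.3 CPM in the controls and 17.1, 19.7, 16.3 and 15.2 CPM in the mutants. Replicate 2 of each group was the highest and the groups overlapped almost entirely. The log2 difference was -0.05 with a standard error of 0.11 and an interval from -0.29 to 0.20 (edgeR adjusted p = 0.876). The sign turned in 4 of 16 alternative fits, where the difference was between 0.0089 and 0.0692.

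Relative to *Rgs9*, its photoreceptor partner, the *Rgs9bp* level per kb was 22.3% ± 3.67 in the controls and 107% ± 35.6 in the mutants. It was lowest at 64.1% in mutant replicate 2 and highest at 151% in mutant replicate 4, against 16.8% to 24.9% in the controls. With the longest transcript as the length, the ratio was 12.1% ± 1.99 in the controls and 58.0% ± 19.3 in the mutants, so that *Rgs9bp* stayed below *Rgs9* in all mutants. This ratio too contains the value that chose the set.

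*Gnb5* (ENSMUSG00000032192), the obligate beta subunit, measured 43.3, 37.4, 44.0 and 43.5 CPM in the controls and 40.5, 37.8, 38.6 and 43.3 CPM in the mutants. Control replicate 2 lay apart from the other controls but was nearly level with mutant replicate 2, and the groups overlapped. The log2 difference was -0.07 with a standard error of 0.08 and an interval from -0.25 to 0.11 (edgeR adjusted p = 0.717). It was -0.12 without control replicate 2, -0.04 without dcKO_Nex-Cre replicate 2 and -0.16 without the 2 libraries of highest mitochondrial share (adjusted p = 0.127). The summed level of the 4 R7 genes was 17.3 ± 0.90 CPM per kb in the controls and 15.0 ± 0.83 in the mutants, with the lowest control at 16.4 and the highest mutant at 16.1. Divided by the *Gnb5* level it was 1.29 ± 0.10 and 1.17 ± 0.12, and the groups overlapped. With the longest transcript as the length, the sum was 29.5 ± 1.39 and 25.7 ± 1.44 CPM per kb. Of the sum per kb of exon, *Rgs7* made up 43.0% ± 2.73 in the controls and 45.8% ± 3.25 in the mutants. *Rgs11* made up 12.7% ± 2.90 and 9.38% ± 2.39 of it.

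*Rgs4* (ENSMUSG00000038530), an R4 gene abundant in cortical neurons, measured 106, 112, 99.2 and 109 CPM in the controls. In the mutants it measured 102, 80.4, 90.5 and 84.8 CPM. Mutant replicate 1 exceeded control replicate 3 and the other mutants lay below all controls. The log2 difference was -0.25 with a standard error of 0.08 and an interval from -0.44 to -0.07 (edgeR adjusted p = 0.216).

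*Rgs8* (ENSMUSG00000042671), an R4 gene of Purkinje cells and striatal neurons, was the most variable member. It measured 40.7, 49.7, 36.5 and 50.3 CPM in the controls and 28.8, 59.3, 31.5 and 20.2 CPM in the mutants. Mutant replicate 2 was above every control, and the other mutants were below every control. The log2 difference was -0.34 with a standard error of 0.27 (edgeR adjusted p = 0.601), and it was -0.71 without dcKO_Nex-Cre replicate 2 (adjusted p = 0.129) and -0.01 within lane tag 2 (adjusted p = 0.988).

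Markers of striatal projection neurons also differed between libraries. The summed level of 12 striatal markers, among them *Drd1*, *Drd2*, *Adora2a* and *Penk*, was 229, 322, 231 and 237 CPM in the controls and 260, 594, 214 and 169 CPM in the mutants. Mutant replicate 2 had the highest value for all 12 markers, and control replicate 2 was the highest control by the sum. Mutant replicate 4, with the lowest sum, also had the lowest *Rgs8* and *Rgs9* levels of all libraries. Among the mutants, *Rgs9bp* had its highest level in replicate 4 and its lowest level in replicate 2. Of the 12 markers, *Ppp1r1b* was called higher in the mutants. Their part in the *Rgs8*, *Rgs9* and *Rgs9bp* values was not tested.

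**Figure D3:**
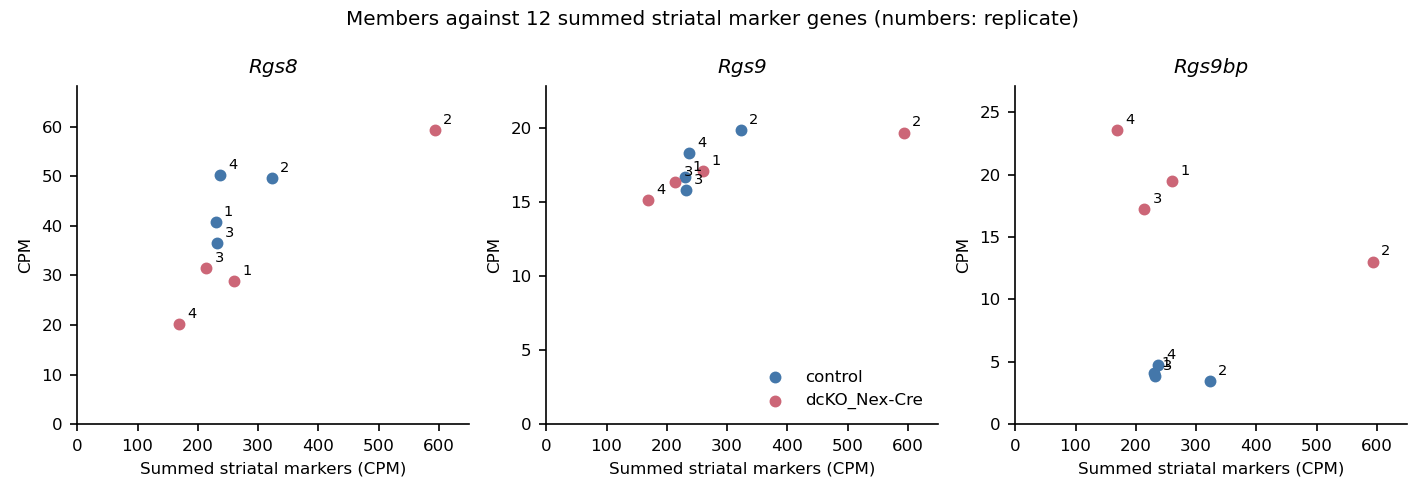
CPM of *Rgs8*, *Rgs9* and *Rgs9bp* (vertical axes, from 0) against the summed CPM of 12 striatal marker genes (horizontal axis) in the 8 libraries, numbered by replicate. dcKO_Nex-Cre replicate 2, at 594 CPM of markers, has the highest *Rgs8* level at 59.3 CPM and the lowest *Rgs9bp* level of the mutants at 13.0 CPM.

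Photoreceptor markers were low in all libraries. The 11 photoreceptor markers used here summed to 2.75 to 5.80 CPM in the controls and to 2.31 to 2.80 CPM in the mutants, *Pde6b* was at 0 counts throughout, and 2 of the 11 passed the filter on low counts, neither of them called. In CPM, *Rgs9bp* was above the photoreceptor sum in all libraries but control replicate 2, where it measured 3.45 against 5.80 CPM. These values are not scaled by length, so the levels of the genes cannot be compared by them. Other cell types also varied between libraries. Choroid plexus markers summed to 740, 22.3, 94.3 and 1336 CPM in control replicates 1 to 4. In the mutants they summed to 4.10 to 557 CPM, with replicate 2 apart from the other mutants at 557 CPM. *C1qb* of the 8 microglia markers and *Cspg4* of the 6 oligodendrocyte precursor markers were called higher in the mutants. The sums were 105 to 121 and 109 to 146 CPM for microglia, and 187 to 277 and 271 to 339 CPM for the precursors. No member of the lists for thalamic neurons (7 of 8 tested), cortical interneurons, radial glia and astrocytes, endothelium and pericytes, red blood cells or choroid plexus was called. The part of any of these cell types, photoreceptors included, in the *Rgs9bp* value was not tested.

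Per kilobase of exon, the order of the members in the control cortex was *Rgs4* (34.4 ± 1.77 CPM per kb), *Gnb5* (13.5 ± 1.01), *Rgs7* (7.47 ± 0.79), *Rgs6* (4.87 ± 0.48), *Rgs8* (4.60 ± 0.71), *Rgs7bp* (3.05 ± 0.35), *Rgs9* (2.77 ± 0.28), *Rgs11* (2.22 ± 0.59), *Gpr158* (1.06 ± 0.16) and *Rgs9bp* (0.61 ± 0.08; SD, n = 4). The ranges of *Rgs6* and *Rgs8* overlapped, as did those of *Rgs7bp* and *Rgs9* and those of *Rgs9* and *Rgs11*, while all other neighbours in this order were separated in the 4 controls. In the mutants *Rgs9bp* moved from place 10 to place 6 with 2.78 ± 0.67 CPM per kb, and its range of 1.98 to 3.58 overlapped those of *Rgs6*, *Rgs8*, *Rgs9* and *Rgs7bp*. With the longest transcript as the length, *Rgs7bp* dropped to place 8 in the controls behind *Rgs9* and *Rgs11*, and *Rgs9bp* was at place 10 in the controls and at place 7 in the mutants.

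**Figure D4:**
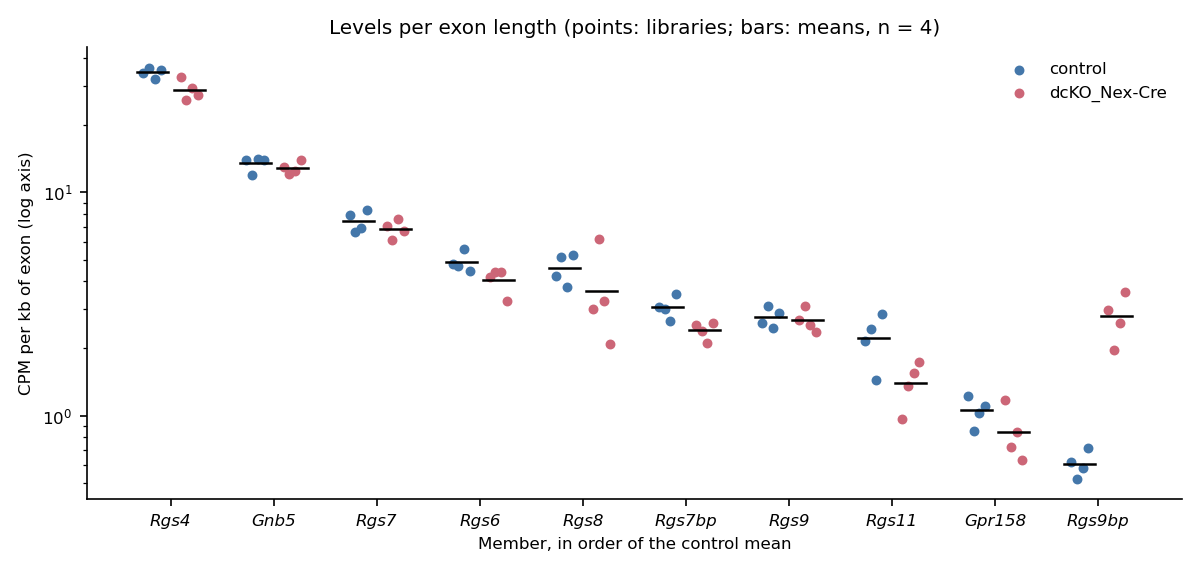
Level of each member in CPM per kb of exon on a log axis, in order of the control mean. Points are libraries and bars are means of the 4 libraries of a group. *Rgs9bp* is the lowest member in the controls at 0.61 CPM per kb and stands at 2.78 CPM per kb in the mutants, among the libraries of *Rgs7bp* and *Rgs9*. With the longest transcript as the length, the mutant mean of *Rgs9* is 4.93 CPM per kb, above that of *Rgs9bp*.

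The wider pathway was described with 90 genes in 5 lists of other RGS genes, G protein subunits, receptors that couple to Gi and Go, and effectors. Of these, 78 passed the filter, and edgeR's test called 1 higher and 0 lower, beside 0.375% and 0.51% of all genes. At an unadjusted p under 0.05, 5 were higher and 10 lower, beside 6.59% and 7.05% of all genes. For the adjusted calls, limma-voom called 1 gene, and DESeq2 called 2 higher (*Npy1r* and *Gnal*) and 2 lower (*Rgs5* and *Oprk1*). The median log2 difference over the 78 genes was -0.05. The gene called was *Npy1r*, a receptor for neuropeptide Y, with 20.7, 22.6, 22.9 and 20.6 CPM in the controls and 43.0, 33.5, 34.9 and 37.6 CPM in the mutants. All mutants were above all controls, and the log2 difference was 0.78 with a standard error of 0.10 (edgeR adjusted p = 0.00516). It was higher in all 16 alternative fits, with differences from 0.70 to 0.83.

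Among 12 tested of 15 other RGS genes, 9 differences were negative, the median was -0.13 and none was called. *Rgs5*, known as a marker of pericytes, had both the smallest p and the highest level per kb. It measured 134 ± 16.8 and 101 ± 11.9 CPM, with a log2 difference of -0.41 (edgeR adjusted p = 0.127), and was called lower in 3 of 16 alternative fits. Among 13 tested of 16 alpha subunits, 8 differences were positive and the median was 0.06. *Gnal*, the alpha subunit of olfactory and striatal neurons, measured 193 ± 20.3 and 265 ± 45.8 CPM with a log2 difference of 0.46 (adjusted p = 0.14), and was called higher in 5 of 16 alternative fits. *Gnai2*, the alpha subunit of the highest level per kb, differed by 0.11 (adjusted p = 0.693), by 0.04 without control replicate 2, by 0.20 without dcKO_Nex-Cre replicate 4 and by 0.22 within lane tag 2. *Gnat1*, *Gnat2* and *Gnat3*, alpha subunits of photoreceptor and taste cells, did not pass the filter on low counts.

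Among 12 tested of 16 beta and gamma subunits, 8 differences were negative, the median was -0.12 and none was called. *Gng4* had the smallest p, with a log2 difference of -0.52 (edgeR adjusted p = 0.288) that was -0.34 without dcKO_Nex-Cre replicate 4 and -0.31 within lane tag 2. *Gng2*, the highest per kb, differed by -0.10 (adjusted p = 0.626) and by -0.06 without control replicate 3. The 29 tested of 31 Gi and Go receptors were split into 14 positive and 15 negative differences with a median of -0.03. Of the 12 GIRK channel and adenylyl cyclase genes, 8 differences were negative and none was called. *Adcy1*, a calcium-stimulated cyclase of cortical neurons, had both the smallest p and the highest level per kb, with 410 ± 34.9 and 348 ± 35.2 CPM and a log2 difference of -0.24 (adjusted p = 0.307) that was -0.12 within lane tag 2 and -0.13 without the 2 libraries of highest mitochondrial share.

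**Figure D5:**
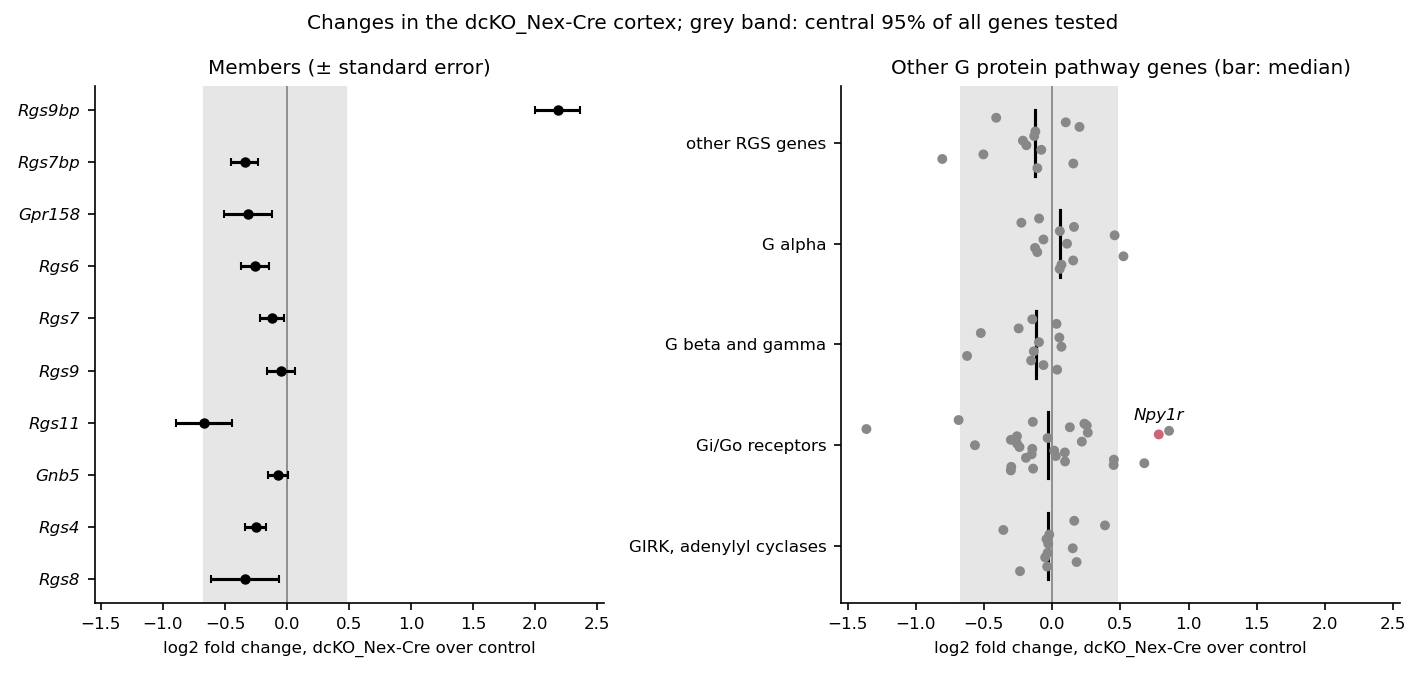
Log2 fold change of the mutant over the control cortex. The left panel shows each member with its standard error, and the right panel shows each tested gene of 5 pathway lists with a bar at the median of the list. The grey band holds the central 95% of all genes tested, from -0.67 to 0.47. *Rgs9bp*, whose increase chose the set, lies at 2.18 far outside the band. The other 9 members lie between -0.67 and -0.05, with *Rgs11* at -0.6716 just below the band's lower edge of -0.6704. *Npy1r* at 0.78 is the pathway gene called (red).

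By Pearson correlation of log2 CPM over the 8 libraries, the genes most like *Rgs9bp* among those tested with a mean of at least 1 CPM were *Adra1a* (r = 0.99), *Ctsf* (0.99), *Dsc2* (0.98), *Rspo2* (0.98) and *Rtl5* (0.98). The libraries form 2 separate groups of 4, and genes that differ between the groups score highly for that reason. After each group was centred on its own mean, r was 0.79 for *Adra1a*, 0.81 for *Ctsf*, 0.69 for *Dsc2*, 0.72 for *Rspo2* and 0.35 for *Rtl5*. The genes were picked by r over the same libraries, so these centred values are a description and no separate support. Among the other members the centred r ran from -0.80 for *Rgs8* to 0.78 for *Gnb5*. *Adra1a*, an adrenergic receptor gene, measured 1.01 ± 0.06 and 2.44 ± 0.35 CPM, and *Rspo2*, a secreted enhancer of WNT signaling, measured 21.5 ± 2.23 and 54.9 ± 10.1 CPM. Mutant replicate 2 was the lowest mutant library for each of these correlated genes, as it was for *Rgs9bp*, which the choice by r favours. For *Rtl5* it was close to mutant replicate 1 (63.0 against 63.9 CPM).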

How the data were processed

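The deposited values are raw read counts by Ensembl identifier, as made by the authors without normalization, for 8 libraries from whole P1 cortex, made from total RNA with an Illumina kit. The submitters' processing notes name the build mm10. The aligner, the counting program and the strand setting are not given in the sources used here, so reads of overlapping genes cannot be told apart. Of 48709 identifiers, 48349 were matched to GENCODE M21 (GRCm38) for symbols, positions and exon lengths.

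The counts were compared by edgeR 4.0.16 under R 4.3.3 (filterByExpr, TMM, robust quasi-likelihood F test, two-sided, no covariates), and Benjamini-Hochberg adjustment was made over 16287 genes with a threshold of 0.05. CPM are scaled by TMM-normalized library sizes, and the prior count of log2 CPM was 2. The study's text names no test for these data. The scripts were tested on simulated data. No libraries of a group were copies (chi-square over degrees of freedom 3.77 or more). The lane tags were read from file names and assigned no condition.

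Alternatives were DESeq2 size factors in edgeR, DESeq2 1.42.0, limma-voom 3.58.1, no filter, at least 10 counts in every library, the replicate number as a block, lane tag 2 only, leaving out each library, and the length of the longest transcript. The fit without the 2 libraries of highest mitochondrial share was added after seeing the data.

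A withheld item is not reported here and was left out of the marker sums. The members, pathway lists and marker lists were chosen with earlier results of these data known. Named in addition were the overlapping genes and the genes that reach within 100 kb of *Rgs9bp*, the 5 genes most correlated with it, and in each pathway list up to 5 genes passing the test or, with none, the gene of smallest p and that of highest level per kb. *Oprk1* and single markers were named after their values were seen. Promoter windows came from RefSeq (GRCm38.p6), in which 8 members were matched. Tables and sequences used pandas 2.3.3 and biopython 1.88 under Python 3.11.15, and figures matplotlib 3.10.9.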

Additional observations from a re-analysis of the deposited data

Results flagged for a closer look

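In 14 of 82 groups of 4 values, 1 library lay apart from the other 3 by Dixon's criterion, where chance alone flags about 1 in 20 groups, or 4.1 of 82. Of the members, *Gnb5* was concerned, with 37.4 CPM in control replicate 2 against 43.3 to 44.0 CPM in the other controls.

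Control replicate 2 also lay apart for *Gnai2* (235 CPM against 292 to 300), *Adcy1* (463 against 390 to 396), *Nudt19* (113 against 85.4 to 88.5) and *Ankrd27* (54.1 against 48.3 to 48.5). The same library lay apart for the summed markers of photoreceptors (5.80 CPM against 2.75 to 2.77), striatal projection neurons (322 against 229 to 237), cortical interneurons (1052 against 889 to 917) and oligodendrocyte precursors (187 against 263 to 277).

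dcKO_Nex-Cre replicate 4 lay apart for *Gnai2* (245 CPM against 315 to 327) and *Nudt19* (101 against 66.8 to 72.5), dcKO_Nex-Cre replicate 1 for the summed markers of cortical projection neurons (1866 against 1639 to 1649), and dcKO_Nex-Cre replicate 2 for those of endothelium and pericytes (298 against 259 to 265) and of choroid plexus (557 against 4.10 to 15.4).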

How the results depend on the processing

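The log2 difference of *Rgs9bp* was between 1.98 and 2.32 in 16 alternative fits, and between 2.05 and 2.32 in the 8 that leave out a library. For the other 9 members, 140 of 144 values were negative, 4 were positive and 1 passed the test. The positive values were all those of *Rgs9*, with 0.0597 within lane tag 2, 0.0692 without the 2 libraries of highest mitochondrial share, 0.0217 without control replicate 2 and 0.0089 without dcKO_Nex-Cre replicate 4. Over the fits that leave out a library the *Rgs9* difference ran from -0.1192 to 0.0217. Without the 2 libraries of highest mitochondrial share, 1 member was called lower (*Rgs7bp*, adjusted p = 0.0463).

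Counts of calls moved far more. Against 83 genes lower and 61 higher, DESeq2 called 279 and 215, no filter gave 150 and 109, and the fit without the 2 libraries of highest mitochondrial share gave 898 and 896. Within lane tag 2, 108 were lower and 140 higher. Leaving out a library gave 9 to 619 lower and 9 to 659 higher, the highest counts being those without dcKO_Nex-Cre replicate 4. Of the other pathway genes (1 higher, 0 lower), DESeq2 called 2 higher and 2 lower, no filter gave 2 and 1, the fit without both libraries 4 and 5, and lane tag 2 gave 2 higher. Leaving out a library gave 1 to 2 higher and 0 to 3 lower. The cause was not tested.

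With the replicate number as a block, 33 genes were lower and 21 higher. No pairing by number was seen, since same-numbered deviations correlated at 0.126, 0.018, 0.135 and -0.138 and not every sample correlated best with its own number. These correlations also hold differences between single libraries, so they cannot exclude a pairing. The block changed no call of a member.

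With the longest transcript as the length, control levels became 8.73 CPM per kb for *Rgs6*, 12.2 for *Rgs7*, 5.10 for *Rgs9*, 3.46 for *Rgs11*, 19.98 for *Gnb5* and 36.2 for *Rgs4*. *Gpr158*, *Rgs11* and *Rgs9bp*, the members of fewest counts in the controls, had 63 to 271 counts per control library, which limits the precision of each library's value.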
